A study of Homo sapiens with 36 samples.

Results

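WM793 is a human melanoma cell line carrying BRAF V600E. The derivative WM793TR-NR2F1 holds a Tet repressor and a lentiviral NR2F1 cDNA, so that doxycycline (DOX) switches the cDNA on. RNA-seq libraries were compared between cells given DMSO with DOX (DMSO + DOX, 3 samples) and cells given DMSO alone (DMSO, 3 samples), chosen by their sample labels as 6 of the 36 samples of the series. DOX was used at 100 ng/mL, with 24 hours before the vehicle and 72 hours with it. The same line under BRAFi + MEKi (PLX4720 at 1 µM with PD0325901 at 35 nM), and the A375 and 1205Lu lines carrying the same inducible cDNA, served only to show where the WM793 response differed. The comparison asks which transcripts move when NR2F1 is raised in cells that receive no inhibitor. No library had DOX without the NR2F1 cDNA, so NR2F1 and DOX itself cannot be told apart here, and reads from the cDNA and from the cell's own gene are counted together.

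NR2F1, also called COUP-TFI, is an orphan nuclear receptor of the COUP-TF family. It binds DNA as a dimer at repeats of a short nuclear receptor motif and can repress or activate transcription, in part by competing with retinoid receptors and by binding their partner RXR. In embryos it patterns the neural crest, the tissue from which melanocytes arise, and in several tumor types it has been tied to dormancy of disseminated cells.

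The labelled lineage was checked against its markers. SOX10, the transcription factor of neural crest and melanocytes, stood between 11574 and 15326 in the 6 samples, and S100B between 7876 and 13557. The pigment cell genes MLANA and TYR were listed at 0 in all 6 samples, and the pigment cell gene PMEL stood between 13.6 and 37.9. Of markers of other cell types, the leukocyte gene CD3E and the keratinocyte genes KRT5 and CDH1 were at 0 in all 6. Others were not: the keratin KRT10 stood between 252 and 320 and the macrophage gene CD68 between 345 and 773. In the shallow DMSO replicate 1 alone, the leukocyte gene PTPRC stood at 91.0 and the endothelial gene EMCN at 90.3, against at most 0.704 and 15.4 in the other samples. None of the tested markers of fibroblasts (9 of 10 tested), keratinocytes and epithelium (6 of 10), leukocytes (4 of 8) or endothelium (5 of 6) was called. The fibroblast list, none of whose genes was at 0 throughout, summed to 9384 to 11599 without and 11286 to 12175 with DOX, and its part in the results on matrix genes was not tested. Expression is given as the normalized value deposited for each gene. One DMSO sample was shallow. Depth was judged by taking the most frequent low value of a sample as a single read. By this DMSO replicate 1 held an estimated 6600000 reads, against 23100000 to 33000000 in the other 5 samples. In it 16636 genes were above 0, against 18887 to 19565. A single read was worth 5.09 units in that sample and 1.05 to 1.44 in the others, so values of low genes in it are coarse. In bulk samples, fewer cells of a type and less RNA per cell cannot be told apart.

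The targeted gene is given first. NR2F1 (chromosome 5, 93583222 to 93594611, plus strand) stood at 917, 321 and 1511 in the DMSO samples and at 76313, 52746 and 65751 in the DMSO + DOX samples. The groups did not overlap, and every DOX sample lay far above every DMSO sample. The mean rose from 916 ± 595 to 64937 ± 11805 (SD, n = 3), a 70.9-fold increase. The log2 change was 6.39 (SE 0.57, adjusted p = 0.0008 by limma with Benjamini-Hochberg adjustment). An exact two-sided permutation test of 3 against 3 samples gave p = 0.1, the smallest it can give. The call held with each of the 6 samples left out in turn, with adjusted p between 0.0011 and 0.027. The other COUP-TF family members did not pass the test. NR2F2 (COUP-TFII) had a log2 change of 0.05 (adjusted p = 0.99) and NR2F6 of 0.08 (adjusted p = 0.95). NR2F1-AS1, the antisense RNA that overlaps NR2F1 on the opposite strand, stood at 595 ± 238 without and 441 ± 114 with DOX (SD, n = 3; log2 change -0.39, adjusted p = 0.68). The library kit does not mark strand, so reads from the overlap cannot be assigned to one of them.

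Of 22074 genes tested, 113 passed the test (0.512% of the genes). Of these, 42 rose (0.19%) and 71 fell (0.322%) with DOX, and 100 were protein coding. The split was 48 higher and 52 lower with samples rescaled to the same total, and 30 and 24 without the mean-variance trend. The median log2 change was 1.55 among those that rose, -0.995 among those that fell and 0.0015 over all genes tested. In all 113 the DMSO and DMSO + DOX samples did not overlap, while 2932 genes (13.3%) did not overlap over the whole table. With the replicate number as a block, 284 genes passed (1.29%), 124 higher and 160 lower, and all 113 were among them in the same direction. Without the shallow DMSO replicate 1, 50 genes passed, 37 of them from the 113, and all 113 kept their sign. Leaving out the other samples in turn left 41 (DMSO replicate 2), 66 (DMSO replicate 3), 22, 23 and 34 genes (DMSO + DOX replicates 1, 2 and 3). In all 6 of these fits 14 genes were called: NR2F1, THSD7A, ID2, DYNC1I1 and CABLES1, which rose, and PAK6, ENSG00000230490, FRMD3, AKAP12, INPP5F, GDNF, ENSG00000253882, NRIP1 and ITGB3, which fell. ENSG00000253882 is annotated as an unprocessed pseudogene, so its reads may be shared with a parent gene. In none of the 6 fits were 37 of the 113 called, among them FN1, HSPA1A, HSPA1B, TCP1, TOM1L2, ITGA1, HK1, ITPR3, ATP2B4, ASB2, ROPN1L, HIF1A, LINC00326, TTC21A and IGSF9. Called in 1 of the 6 fits were VIT, MYORG, SYNC, PLK2, PDE1C, HSP90AA1, ID3, ENO2, ADAM12, COL15A1, COL22A1, C3, MOXD1, RXRG, IFIT1, MAP2K1, PPM1H, SESN3, PKNOX2 and ENSG00000287723. DKK1 was called in 2 of them, IL6, SERPINA3 and SUSD4 in 3, PCDH1, SOD1 and ENSG00000287414 in 4, and RARB and AZGP1 in 5.

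**Figure D1:**
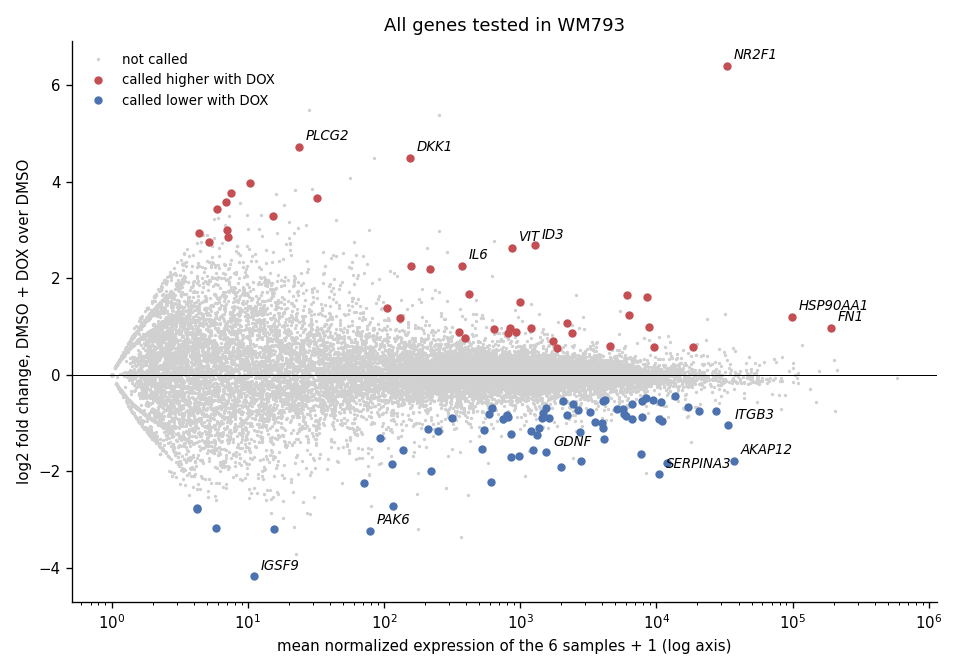
Log2 fold change with DOX in WM793 under DMSO against mean normalized expression of the 6 samples plus 1 (log axis), 1 point per gene tested. The 42 genes called higher and 71 called lower are coloured, with NR2F1 at 6.39 standing far above the rest of the well expressed genes.

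The 4 genes with the smallest adjusted p were NR2F1, GDNF, INPP5F and AKAP12, and each is given by sample. GDNF (chromosome 5, 37812677 to 37840041, minus strand) encodes a secreted neurotrophic factor that signals through RET and GFRA co-receptors. Its values were 2827, 2442 and 1782 without DOX and 764, 660 and 861 with DOX. Every DOX sample was below every DMSO sample. GDNF fell 3.09-fold on the means (log2 change -1.61, SE 0.17, adjusted p = 0.0018, limma). INPP5F (chromosome 10, 119726042 to 119829147), a phosphoinositide phosphatase of endosomes, stood at 10416, 14211 and 10387 without DOX and at 3090, 3863 and 4148 with DOX, again without overlap. Its log2 change was -1.65 (SE 0.18, adjusted p = 0.0018). AKAP12 (chromosome 6, 151239967 to 151358559), a scaffold that anchors protein kinases A and C, stood at 81955, 52651 and 40276 without DOX and at 17074, 14683 and 17137 with DOX. The DMSO samples were spread wider and the DOX samples lay close together below them. AKAP12 was the most abundant of the 15 largest falls (log2 change -1.78, SE 0.19, adjusted p = 0.0018).

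Windows from 250 bases before to 50 after the RefSeq start of NR2F1, GDNF and AKAP12 are shown because COUP-TFs bind AGGTCA motifs. RXRG is added, chosen after its values were seen, because its window holds one. The RefSeq start of RXRG lies inside the gene as GENCODE gives it, so most of its window is within the gene. The INPP5F window lies wholly inside the gene and is not shown. The sequences are from RefSeq on GRCh38.p14, 5′ to 3′ on the gene's strand, with motifs (AGGTCA or its other strand TGACCT) in capitals. The inducible cDNA is not driven by the NR2F1 window.
NR2F1 (chr5:93582972-93583271, plus strand): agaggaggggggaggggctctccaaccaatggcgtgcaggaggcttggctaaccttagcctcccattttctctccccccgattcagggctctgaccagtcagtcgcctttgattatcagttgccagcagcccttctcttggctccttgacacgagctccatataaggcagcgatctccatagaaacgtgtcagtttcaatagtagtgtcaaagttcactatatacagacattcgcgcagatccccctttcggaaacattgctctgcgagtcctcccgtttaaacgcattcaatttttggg
GDNF (chr5:37839992-37840291, minus strand): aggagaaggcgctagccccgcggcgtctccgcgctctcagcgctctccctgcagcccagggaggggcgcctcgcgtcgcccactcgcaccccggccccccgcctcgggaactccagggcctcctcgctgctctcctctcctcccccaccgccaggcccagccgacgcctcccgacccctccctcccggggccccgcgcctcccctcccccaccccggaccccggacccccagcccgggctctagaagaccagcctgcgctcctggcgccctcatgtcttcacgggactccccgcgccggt
AKAP12 (chr6:151239717-151240016, plus strand): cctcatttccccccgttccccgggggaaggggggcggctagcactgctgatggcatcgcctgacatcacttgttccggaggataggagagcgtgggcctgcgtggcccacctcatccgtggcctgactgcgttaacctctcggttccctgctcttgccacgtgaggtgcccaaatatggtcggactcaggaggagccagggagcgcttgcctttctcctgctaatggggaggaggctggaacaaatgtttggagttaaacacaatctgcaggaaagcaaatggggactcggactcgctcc
RXRG (chr1:165445077-165445376, minus strand): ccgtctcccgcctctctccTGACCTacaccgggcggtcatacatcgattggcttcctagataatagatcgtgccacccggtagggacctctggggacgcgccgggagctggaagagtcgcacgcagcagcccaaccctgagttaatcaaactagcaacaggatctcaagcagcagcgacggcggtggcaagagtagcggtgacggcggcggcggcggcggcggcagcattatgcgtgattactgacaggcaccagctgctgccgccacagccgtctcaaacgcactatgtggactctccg
The windows of NR2F1, GDNF and AKAP12, and those of RARB and NRIP1 (not shown), held no such motif, and that of RXRG held 1. Among called genes with a window, some of which also lie inside the gene, 3 of 34 that rose (8.82%) and 5 of 54 that fell (9.26%) held the motif, beside 1415 of 13688 genes tested (10.3%). ID3, DYNC1I1 and TOM1L2 were the raised genes and PPM1H, RXRG, HK1, TTC21A and SERPINA3 the lowered ones. A direct repeat of the motif spaced by 1 base, on either strand, was in 0 windows of called genes and in 3 of all genes tested.

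Of 26 tested genes of the COUP-TF and nuclear receptor list, 2 rose (NR2F1 itself and RARB) and 2 fell (RXRG and NRIP1). Over all genes 0.512% were called, and the rise of NR2F1 was set by the design. Like the other lists, this list was drawn up with earlier results of these data known. The median log2 change of the list was -0.09 (0.0015 over all genes). It was -0.01 without DMSO + DOX replicate 2, and -0.14 without DMSO replicate 1 and with a replicate block. RARB (chromosome 3, 24687887 to 25597932), a retinoic acid receptor whose own gene is a classical retinoic acid target, stood at 83.1, 62.2 and 68.1 without DOX and at 620, 247 and 227 with DOX. The groups did not overlap, and DMSO + DOX replicate 1 was the highest. RARB rose with a log2 change of 2.19 (SE 0.32, adjusted p = 0.01, limma), and the call was lost without DMSO replicate 2 (adjusted p = 0.057). RXRG, a retinoid X receptor that partners other nuclear receptors, stood at 1515, 1885 and 1102 without and at 342, 555 and 495 with DOX (log2 change -1.69, SE 0.26, adjusted p = 0.014), with no overlap. NRIP1, a corepressor of nuclear receptors, stood at 3981, 3896 and 3554 without and at 1929, 1448 and 1633 with DOX (2.28-fold lower on the means, SE of the log2 change 0.14, adjusted p = 0.0038). The groups of RXRG and of NRIP1 did not overlap. RARA (-0.46, adjusted p = 0.22), RARG (0.15, adjusted p = 0.78), RXRA (-0.04, adjusted p = 0.98) and RXRB (-0.09, adjusted p = 0.87) did not pass. In the retinoic acid list, 1 of 21 tested genes rose (RARB), with a median of -0.23 (-0.09 without DMSO replicate 1 and -0.32 without DMSO replicate 2). CYP26B1, which breaks down retinoic acid, had a mean of 243 without and 79.8 with DOX (log2 change -1.69, adjusted p = 0.056) and passed with the replicate block (adjusted p = 0.019). CRABP2, a retinoic acid binding protein, had means of 2862 and 1501 (adjusted p = 0.18, and 0.014 with the block).

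Among called genes with a mean of at least 30, the largest rise after NR2F1 was that of DKK1. DKK1 (chromosome 10, 52314281 to 52318042), a secreted WNT antagonist, stood at 5.84, 26.98 and 4.97 without DOX and at 582, 194 and 114 with DOX. All DOX samples were above all DMSO samples, and the value in DMSO replicate 1 is near that of a single read there (5.09). The log2 change was 4.49 (SE 0.67, adjusted p = 0.012), and the call was lost in 4 of the 6 fits that left out a sample (adjusted p up to 0.086). DKK1 was the only called gene among 34 tested WNT pathway genes (median 0.09, and -0.01 without DMSO replicate 1) and among 24 tested dormancy genes (median 0.05, and -0.02 without DMSO + DOX replicate 1), beside 0.19% of all genes called higher. With the block, THBS1 (log2 change 1.16, adjusted p = 0.28, and 0.015 with the block) and IGFBP5 (2.04, adjusted p = 0.16, and 0.039 with the block) also passed among the dormancy genes, and FZD4 fell among the WNT genes (-0.92, adjusted p = 0.11, and 0.035 with the block).

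ID2 and ID3, inhibitors of basic helix-loop-helix transcription factors and classical targets of BMP signaling, were the 2 called genes of 31 tested in the TGF-beta and BMP list, whose median was 0.02 (-0.15 without DMSO replicate 3 and 0.15 without DMSO replicate 1), beside 0.19% of all genes called higher. ID2 (chromosome 2, 8678845 to 8684461) stood at 60.0, 50.5 and 45.8 without DOX and at 364, 235 and 183 with DOX. It rose with a log2 change of 2.25 (SE 0.29, adjusted p = 0.005). ID3 (chromosome 1, 23557926 to 23559501) stood at 183, 298 and 671 without and at 2902, 1624 and 2044 with DOX (log2 change 2.68, SE 0.52, adjusted p = 0.044). Both sets of samples were separate, but the DMSO values of ID3 spread widely, and its call was lost in 5 of 6 fits that left out a sample. ID1 had a mean of 119 without and 355 with DOX (log2 change 1.76, adjusted p = 0.34), and ID4 a log2 change of -0.64 (adjusted p = 0.44).

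IL6 (chromosome 7, 22725884 to 22732002), an inflammatory cytokine, was the called gene of 24 tested cytokine and NF-kB target genes, whose median was -0.19 (-0.38 without DMSO replicate 1 and -0.03 without DMSO + DOX replicate 1), beside 0.19% of all genes called higher. It stood at 105, 124 and 134 without DOX and at 419, 1003 and 459 with DOX, the groups apart and DMSO + DOX replicate 2 highest. Its log2 change was 2.25 (SE 0.33, adjusted p = 0.012), lost in 3 of 6 fits that left out a sample. IL1A had a log2 change of -1.39 (adjusted p = 0.19, and 0.0041 with the block). SERPINA3 and C3, secreted proteins of the acute phase and of complement, fell. SERPINA3, a serine protease inhibitor, stood at 10902, 19172 and 20354 without and at 2799, 4261 and 4881 with DOX (log2 change -2.06, SE 0.29, adjusted p = 0.008). C3, the central complement component, stood at 14447, 22002 and 18283 without and at 2731, 8934 and 5270 with DOX (log2 change -1.83, SE 0.34, adjusted p = 0.032). The groups did not overlap for either gene. Of 37 tested interferon response genes, IFIT1 fell (-0.81, adjusted p = 0.0498) while 25 had a positive log2 change (median 0.11, and -0.03 without DMSO replicate 1). Over all genes 0.322% fell, and 11079 of 22074 had a positive log2 change. With the block OAS3 rose (0.67, adjusted p = 0.46, and 0.022 with the block). Of 20 antigen presentation genes none passed (median -0.27), while with the block CD74 fell (log2 change -0.80, adjusted p = 0.22, and 0.029 with the block) and HLA-E rose (0.54, adjusted p = 0.44, and 0.012 with the block).

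**Figure D2:**
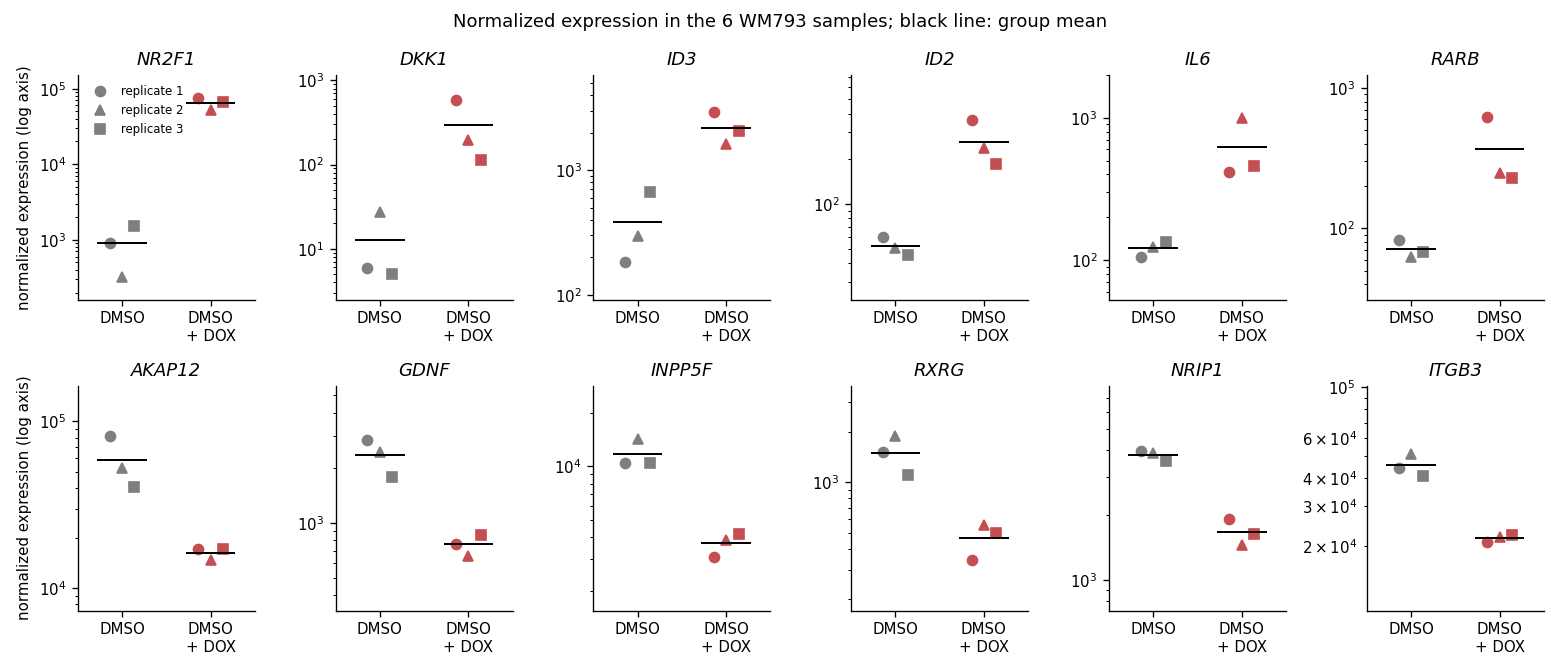
Normalized expression (log axis) of 12 genes in the 3 DMSO and 3 DMSO + DOX samples of WM793, with replicates 1, 2 and 3 as circles, triangles and squares and black lines at group means. In all 12 genes the groups do not overlap, with NR2F1 between 52746 and 76313 in the DOX samples and AKAP12 between 40276 and 81955 in the DMSO samples.

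Among growth factor genes, GDNF was the called member of 44 tested receptor tyrosine kinases and ligands (median -0.17, and -0.0092 without DMSO replicate 1), beside 0.322% of all genes called lower. Its co-receptors GFRA1 (log2 change -0.98, adjusted p = 0.24) and GFRA2 (-1.87, adjusted p = 0.26) did not pass. The remaining large rises included VIT, an extracellular matrix protein (log2 change 2.63, SE 0.43, adjusted p = 0.017), SYNC, a filament-binding protein (1.67, adjusted p = 0.021), DYNC1I1, a dynein intermediate chain (1.49, adjusted p = 0.0045), SUSD4, a complement regulator (1.37, adjusted p = 0.014), and PLK2, a polo-like kinase (1.24, adjusted p = 0.021). MYORG, a glycosidase, had means of 4.58 without and 57.7 with DOX and rose (3.65, adjusted p = 0.014). HSPA1A and HSPA1B, heat shock proteins of the HSP70 family, rose with log2 changes of 1.60 and 1.65 (adjusted p = 0.033 and 0.037). They are near-identical copies whose reads cannot be well separated. HSP90AA1, the inducible cytosolic HSP90, stood at 78584, 53648 and 48577 without and at 159390, 117660 and 132330 with DOX (SE of the log2 change 0.22, adjusted p = 0.029). Other chaperone genes, looked up after these values were seen, did not pass: DNAJB1 (0.66, adjusted p = 0.24), HSPH1 (0.78, adjusted p = 0.38) and HSPA8 (0.62, adjusted p = 0.44). With the block, DNAJB1 (adjusted p = 0.023) and HSPH1 (adjusted p = 0.039) passed. TCP1, a subunit of the cytosolic chaperonin, rose (0.57, adjusted p = 0.048).

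Of 40 tested integrins, laminins and matrix glycoproteins, 1 rose (FN1) and 2 fell (ITGB3 and ITGA1), beside 0.19% and 0.322% of all genes, with a median of -0.22 that stayed between -0.27 and -0.15 under all 19 settings. FN1, the matrix protein fibronectin, stood at 124230, 135110 and 131870 without and at 237790, 275710 and 250390 with DOX. The DOX samples formed a separate group above (log2 change 0.96, SE 0.16, adjusted p = 0.018). ITGB3, the beta 3 integrin of the vitronectin receptor, stood at 44362, 50883 and 40896 without and at 20909, 22051 and 22548 with DOX (log2 change -1.05, SE 0.13, adjusted p = 0.0045). ITGA1, a collagen receptor subunit, fell (-0.92, adjusted p = 0.0498). With the block, THBS1 rose and THBS2 (-0.75, adjusted p = 0.089, and 0.0089 with the block) and SPARC (-0.71, adjusted p = 0.30, and 0.012 with the block) fell. Of 32 collagens, COL15A1 (-1.11, adjusted p = 0.049) and COL22A1 (-0.99, adjusted p = 0.027) fell and none rose, with a median of 0.10 (0.02 without DMSO replicate 1 and 0.16 without DMSO replicate 3), while COL8A1 rose with the block (0.81, adjusted p = 0.43, and 0.0089 with the block). Of 34 metalloproteinases, sheddases and inhibitors, ADAM12 fell (-0.85, adjusted p = 0.025). ADAM10, which the study names under BRAFi + MEKi, had -0.31 under DMSO (adjusted p = 0.25). With the block ADAMTS9 rose (0.67, adjusted p = 0.066, and 0.021 with the block) and PLAT fell (-0.73, adjusted p = 0.26, and 0.039 with the block). Of 31 cadherin and adhesion genes, PCDH1 fell (-1.24, adjusted p = 0.0075). With the block NRCAM rose (0.48, adjusted p = 0.55, and 0.039 with the block) and CADM3 fell (-0.43, adjusted p = 0.089, and 0.030 with the block). Of 46 axon guidance genes, none passed, and SEMA6A rose with the block (0.70, adjusted p = 0.42, and 0.032 with the block). PAK6, a kinase downstream of CDC42, stood at 126, 169 and 129 without and at 11.2, 23.9 and 10.2 with DOX (log2 change -3.23, SE 0.41, adjusted p = 0.005). PAK6 overlaps BUB1B and the readthrough gene BUB1B-PAK6 on the same strand, and BUB1B stood at 3102 ± 582 without and at 3095 ± 369 with DOX (SD, n = 3). FRMD3, a band 4.1 family protein, fell (-1.92, adjusted p = 0.005), as did the copper monooxygenase-like MOXD1 (-1.78, adjusted p = 0.015), ASB2, a ubiquitin ligase adaptor (-1.85, adjusted p = 0.036), and ROPN1L (-2.24, adjusted p = 0.03). Other large falls were the lncRNA genes ENSG00000287723 (-2.72), ENSG00000287414 (-2.23), ENSG00000230490 (-1.99) and LINC00326 (-1.70).

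Few members of the growth and metabolic lists passed. None of 43 S phase genes passed, though 39 of 43 had a positive log2 change, beside 11079 of all 22074 genes, with a median of 0.20 (0.12 to 0.31 under the 19 settings). With the block, CDT1 (0.96, adjusted p = 0.24, and 0.026 with the block) and UHRF1 (0.45, adjusted p = 0.21, and 0.049 with the block) passed. None of 44 mitosis genes passed, and 36 of 44 had a positive log2 change (median 0.10, between 0.07 and 0.17 under the 19 settings). The study names some cell cycle genes for NR2F1 induction under BRAFi + MEKi, whereas the values here are under DMSO. Of these, TK1 (0.49, adjusted p = 0.37), FOXM1 (0.23, adjusted p = 0.69), CKS2 (0.17, adjusted p = 0.74), CDKN3 (0.0026, adjusted p = 1.00) and BUB1 (-0.02, adjusted p = 1.00) did not pass under DMSO. The CDK inhibitor CDKN1A, also named there under the inhibitors, did not pass either (-0.10, adjusted p = 0.98). Of 52 mTORC1 targets none passed (median -0.02, with -0.09 without DMSO replicate 3 and 0.01 with samples rescaled to the same total). Among them HSPD1 had 0.37 (adjusted p = 0.31) and HSPE1 0.45 (adjusted p = 0.15, and 0.035 with the block). PDK1, a kinase that inhibits pyruvate dehydrogenase, had -0.50 (adjusted p = 0.62). Of 36 hypoxia and glycolysis genes, HK1 (-0.43, adjusted p = 0.048) and ENO2 (-0.69, adjusted p = 0.021) fell, beside 0.322% of all genes. Of 26 unfolded protein response genes none passed, and 1 of 26 had a positive log2 change (1 to 6 under the 19 settings). Their median was -0.20 (between -0.33 and -0.11 under the 19 settings). Of 58 ribosomal protein genes none passed, and 5 of 58 had a positive log2 change (4 to 10 under the 19 settings). Their median was -0.11 (between -0.18 and -0.07 under the 19 settings). Of 31 calcium genes, ITPR3 (-0.52, adjusted p = 0.046) and ATP2B4 (-0.77, adjusted p = 0.048) fell, and RYR2 had means of 57.7 and 355 (2.62, adjusted p = 0.12, and 0.015 with the block), while KCNN3 rose with the block (0.96, adjusted p = 0.13, and 0.023 with the block). None of 20 melanocytic genes passed (median -0.05, with -0.11 and -0.12 without DMSO replicates 1 and 2). The smallest p in this list were those of DCT (-1.85), EDNRB (-0.45) and APOE (-0.64). None of 25 genes of the undifferentiated state passed (median 0.07, and -0.0026 without DMSO replicate 1), WNT5A having 0.56 (adjusted p = 0.24). THBS1, also in this list, passed with the block (adjusted p = 0.015). Of 24 CDK inhibitors, D cyclins and p53 targets none passed (median 0.07, with 0.04 and 0.20 without DMSO + DOX replicates 1 and 2). Of 20 MAPK output genes none passed (median -0.14, and -0.08 without DMSO replicate 1), with SPRY1 at -1.05 (adjusted p = 0.34) and EGR1 at -1.27 (adjusted p = 0.50). Lists of 30 nucleolar MYC targets (median -0.07), 24 cholesterol synthesis genes (-0.06), 33 ATF4 stress genes (0.05) and 13 mitochondrially encoded mRNAs (0.23) had 0 called genes each. Without DMSO replicate 1 the cholesterol median was 0.11 with 1 gene called higher, and without DMSO replicate 3 it was -0.20. The median of the mitochondrial mRNAs was 0.01 without DMSO replicate 2 and 0.47 without DMSO replicate 3, and that of the ATF4 genes was -0.05 with array weights. RXRG was the called gene of the 25 neural crest genes, and NES fell with the block (-0.67, adjusted p = 0.34, and 0.039 with the block).

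**Figure D3:**
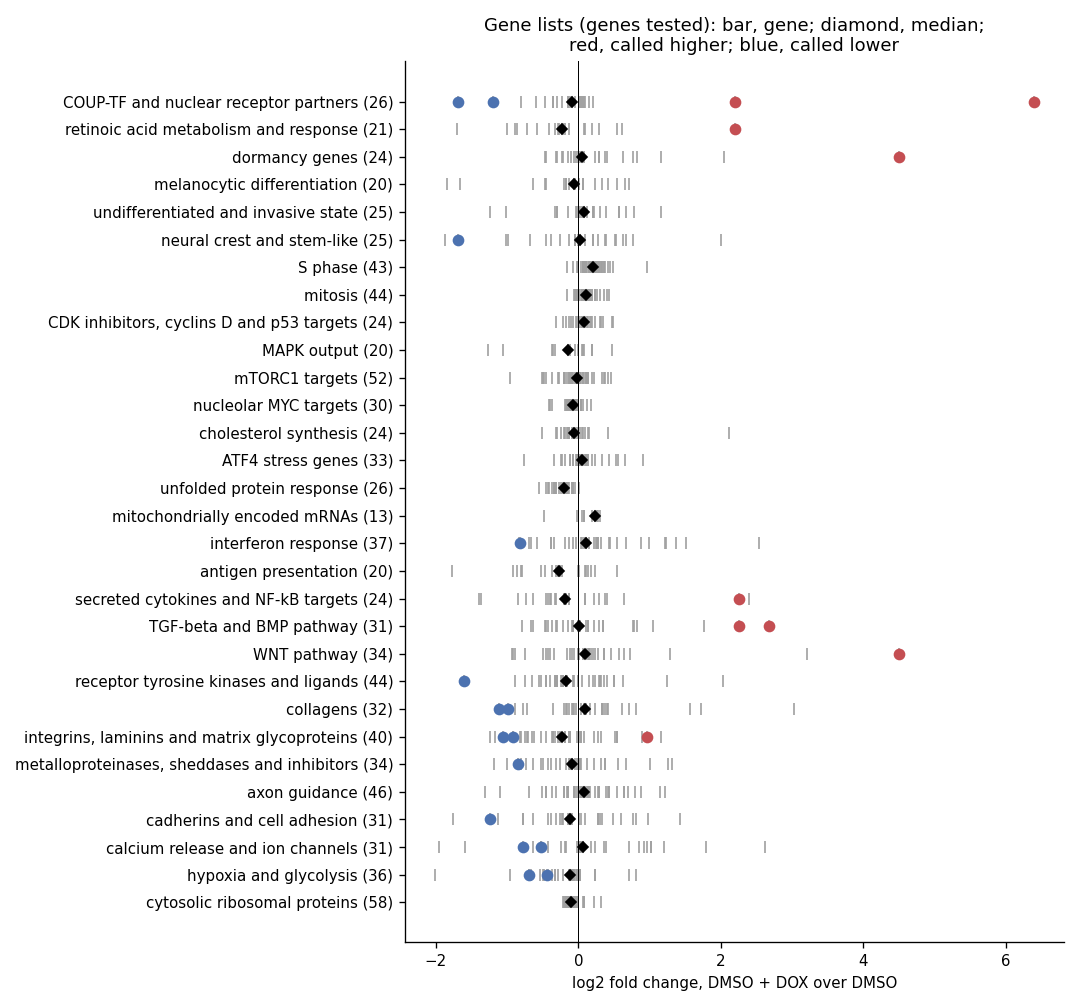
Log2 fold change of each tested gene of 30 gene lists (grey bars) with the list median (diamond) and called genes in colour (red higher, blue lower). S phase genes lie mostly above 0 (39 of 43) and unfolded protein response genes mostly below (25 of 26), and no list holds more than 4 called genes.

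Some called genes were listed at 0 throughout one group. THSD7A, a membrane protein of the thrombospondin repeat family, was listed at 0 in all DMSO samples and stood at 16.3, 8.66 and 14.2 with DOX. IGSF9, an immunoglobulin family adhesion protein, stood at 6.82, 26.5 and 26.8 without DOX and was listed at 0 in all DOX samples. There were 5 called genes listed at 0 in all DMSO samples and 4 listed at 0 in all DOX samples. Several abundant genes fell by smaller amounts and were chosen after their values were seen. HIF1A, the oxygen-regulated transcription factor, stood at 28836, 24023 and 25011 without and at 16709, 15200 and 14113 with DOX (adjusted p = 0.031). SOD1, the cytosolic superoxide dismutase, stood at 11641, 10819 and 10804 without and at 7952, 7463 and 7630 with DOX (adjusted p = 0.014). MAP2K1, which encodes MEK1, stood at 2534, 2510 and 2281 without and at 1690, 1676 and 1616 with DOX (adjusted p = 0.024). In each of these 3 genes every DOX sample lay below every DMSO sample.

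Under BRAFi + MEKi the same DOX contrast in WM793 called 45 genes (0.204%), 21 higher and 24 lower. Of the 113 genes called under DMSO, 99 had the same sign under the inhibitors (57.9% of all genes with values other than 0 did) and 9 were called the same way, which is 7.96% of the 113 and 20.0% of the 45. These included NR2F1 (4.99 under the inhibitors), IL6 (1.91), VIT (2.35), PDE1C (0.57), RXRG (-1.83), NRIP1 (-0.85), AZGP1 (-0.90), SESN3 (-0.87) and PKNOX2 (-0.93). The difference between the DOX effect under DMSO and under the inhibitors, tested over 12 samples, passed for 0 of 22074 genes by limma (0.0%), while 1262 had an unadjusted p under 0.05. ID3 had 2.68 under DMSO and 0.16 under the inhibitors (adjusted p of the difference 0.72), and AKAP12 had -1.78 and -0.60 (adjusted p = 0.47). With array weights 43 genes passed, 15 of them above 0 and 28 below, AKAP12 among them (adjusted p = 0.041) and ID3 not (adjusted p = 0.076).

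Against the other lines under DMSO, the WM793 effect was tested as a difference over 18 samples of 3 lines. The A375 and 1205Lu calls are from that fit of 24816 genes, while the 113 are from the fit of the 12 WM793 samples. The numbers of called genes are therefore not like for like. In A375 the DOX effect called 47 genes (0.189%), and only NR2F1 (5.49 in A375) was called there in the direction of WM793, while 79 of the 113 had the same sign in both lines, NR2F1 included, beside 50.2% of all genes. In 1205Lu 0 genes passed by limma (0.0%, with 1974 at an unadjusted p under 0.05), and 81 of 113 shared the sign, beside 47.7% of all genes. NR2F1 itself had a log2 change of 1.93 in 1205Lu (SE 0.48, adjusted p = 0.32 by limma), where the DMSO samples already stood at 3594 ± 2321 (SD, n = 3). Its effect in WM793 was larger by 4.46 on the log2 scale (adjusted p = 0.027). The difference from A375 passed for 8 of 24816 genes (0.0322%) and that from 1205Lu for 13 (0.0524%). Of the genes described above, GDNF (difference -1.55), INPP5F (-1.39) and FRMD3 (-2.16) had lower log2 changes in WM793 than in 1205Lu (adjusted p = 0.046 for each by limma), where they were -0.06, -0.26 and 0.24. With samples rescaled to the same total, all 3 missed the threshold (adjusted p = 0.072, 0.059 and 0.059), and genes called lower than in 1205Lu went from 6 to 1. All 3 also missed it without DMSO + DOX replicate 1, 2 or 3 or DMSO replicate 2 (adjusted p between 0.059 and 0.10), GDNF missed it without DMSO replicate 1 (0.079) and FRMD3 without DMSO replicate 3 (0.075). The GDNF difference had an adjusted p of 0.071 with the replicate block and of 0.15 with all 36 samples in the fit. The NR2F1 difference missed the threshold without DMSO + DOX replicate 1, 2 or 3 (adjusted p = 0.059, 0.057 and 0.059). ID3 had a log2 change of 2.68 in WM793 and -0.68 in A375 (difference 3.36, adjusted p = 0.022, and 0.081 with the replicate block). It also missed the threshold without DMSO + DOX replicate 1 or 3 or DMSO replicate 2 (adjusted p = 0.059, 0.052 and 0.063).

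**Figure D4:**
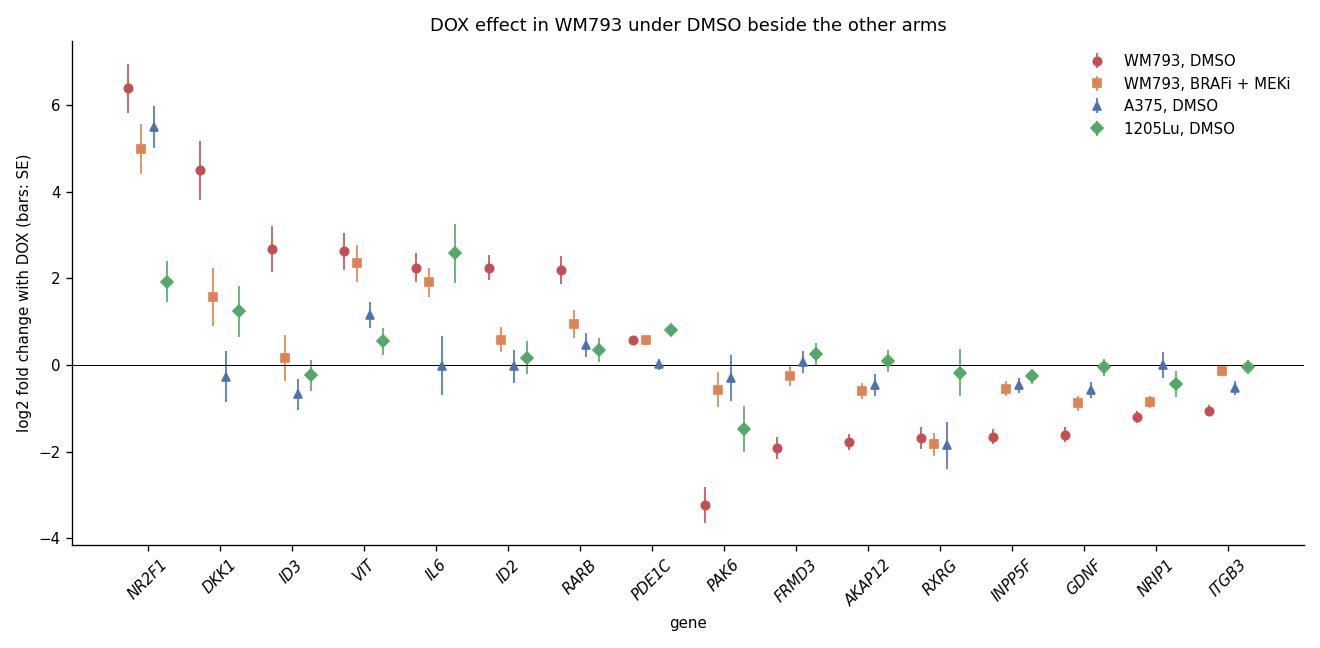
Log2 fold change with DOX, with its SE, for 16 genes in WM793 under DMSO, WM793 under BRAFi + MEKi, A375 under DMSO and 1205Lu under DMSO. NR2F1 rose 6.39 in WM793 under DMSO, and FRMD3 was at -1.92 there against -0.25, 0.07 and 0.24 in the other arms.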

How the data were processed

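RNA was sequenced from 3 cell lines in 12 groups of 3 samples, and the 6 samples compared here are the WM793 samples given DMSO with or without DOX. Per the labels and the methods, the authors aligned reads to GRCh38 with STAR, estimated gene expression with RSEM and normalized it with DESeq2. The deposited values are a normalized expression signal, not counts, so no count test was run. Depth was estimated from the most frequent low value of each sample. Totals of the deposited signal were 32967248 to 34621958 in the 6 samples. Values were taken as log2(value + 1), genes averaging 1 or more in any WM793 group were kept, and limma 3.58.1 (R 4.3.3) with a mean-variance trend was fitted to all 12 WM793 samples, with Benjamini-Hochberg adjustment over all genes and a threshold of 0.05. Differences between lines used the 18 DMSO and DMSO + DOX samples. Gene symbols came from GENCODE 44 and matched 60401 of 60656 identifiers. Named genes were the COUP-TF genes, the 15 largest rises and falls among called genes with separate groups averaging 30 or more, called members of each list (or the 3 smallest p), genes the study names, the largest called differences, and the 4 smallest adjusted p in full. Members and lists were chosen with earlier results of these data known. Samples of the same replicate number deviated together across the 13428 genes averaging 30 or more (r = 0.374, 0.231 and 0.271 for replicates 1, 2 and 3), and less so over all 22074 genes tested (r = 0.148, 0.085 and 0.097). By the limit set for the correlations over the 13428 genes, the replicate numbers pair the samples. The main fit nevertheless has no replicate block, because the labels and methods do not say that the number marks a shared culture. The blocked value is printed where it changes a call. The study describes replicates as independent experiments and does not say whether samples of the same number shared one. The test of DMSO + DOX against DMSO was also run on simulated data. Noise there was independent between samples and of equal spread, so a shallow sample and shared replicate deviations were not covered. Fit alternatives are listed in the closing section. Some items are not reported here.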

Additional observations from a re-analysis of the deposited data

Results flagged for a closer look

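The DOX effect under DMSO in WM793 differed from that in A375 for 8 genes by the test of the difference, given as WM793 minus A375 in log2 units. The values were 3.36 for ID3, -1.09 for RGL1, -2.40 for SKP2, 5.29 for PLCG2, -5.30 for UTP14C, 3.44 for ENSG00000254350, 3.56 for LINC02735 and -2.43 for ENSG00000287544. UTP14C and ENSG00000287544 were listed at 0 in all 6 WM793 samples, and PLCG2 stood below 2 in each WM793 DMSO sample.

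Against 1205Lu it differed for 13 genes, given as WM793 minus 1205Lu. The values were -1.34 for NEDD4L, -1.55 for GDNF, -2.16 for FRMD3, 4.46 for NR2F1, -0.95 for RPS6KA3, 3.54 for C2orf73, 4.58 for PLCG2, -1.39 for INPP5F, 4.13 for CHMP5P1, 3.44 for ENSG00000254350, 3.56 for LINC02735, -2.76 for LINC01581 and 2.21 for ENSG00000280352. Of these, C2orf73, CHMP5P1, ENSG00000254350, LINC02735, LINC01581 and ENSG00000280352 had values below 30 in every sample of both lines under DMSO.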

How the results depend on the processing

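The call of NR2F1 in DMSO + DOX against DMSO in WM793 held under every alternative run. The count of 113 called genes became 419 with array weights, 54 without the trend, 284 with the replicate block and 529 with the replicate block on only the 6 samples. It lay between 22 and 66 with 1 sample left out, and was 57 without DMSO replicate 1 and with a replicate block, an alternative chosen after seeing the data. The replicate block on all 12 samples changed no other call of the genes named here than those given beside their values. With the block on only the 6 samples, 21 genes named by the rule passed that had not, among them SPRY1, EGR1, HSPD1, WNT5A and APOE, and CHMP5P1 and LINC01581 were lost. Of the 113 genes, 51 were among the 83 called on only the 6 samples without a block, 74 among the 79 without the filter and 38 without the trend. Of the 46 called genes named by the rule, these settings lost 19, 14 and 27. The share called higher was 37.2% and became 55.6% without the trend and 48.0% with samples rescaled to the same total (48 of 100). For DOX by inhibitor, the count of 0 became 43 with array weights and ranged from 0 to 1 with 1 sample left out. Against A375, the count of 8 became 38 with all 36 samples, 28 with array weights, 16 without the filter, 66 with a pseudocount of 0.1 and 18 with the replicate block, and lay between 7 and 22 with 1 sample left out. Against 1205Lu, the count of 13 became 21, 109, 23, 41 and 27 in the same order and 6 with samples rescaled, and lay between 5 and 27 with 1 sample left out. None of the 113 called genes changed sign under any alternative that gave it a value. The cause of these shifts was not tested. DMSO replicate 1 limits low genes, since 3 reads there are worth 15.3 units.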
